A study of Mus musculus with 17 samples.

Results

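The genes described here carry mouse symbols that begin with Snrp, Srsf, Hnrnp, Sf3a, Sf3b or Prpf, the symbol families of spliceosome particle proteins, SR proteins and heterogeneous nuclear ribonucleoproteins (hnRNPs). That rule found 66 genes among 16569 named genes, with 98 of the 20624 RefSeq messenger RNA entries. A gene with several entries is represented by the entry with the highest mean over all libraries. There were 12 Snrp, 11 Srsf, 21 Hnrnp, 3 Sf3a, 6 Sf3b and 13 Prpf genes, and 48 of the 66 had 1 listed entry. The animals were newborn male C57Bl/6 mice, sampled on postnatal day 0, 3 or 7, and strand-specific paired-end libraries were made from total RNA of the right ventricle (RV) and the left ventricle (LV). P0 lies before closure of the fetal ductus, P3 in the transition and P7 at the stage when most heart muscle cells finish differentiating, and the labels name no treatment or engineered allele for any group. There were 3 libraries for each chamber and age and 2 for RV P7, described as biological replicates. Comparisons of P3 and of P7 with P0 share the P0 libraries of their chamber.

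Splicing removes introns from the primary transcript. The spliceosome is built from small nuclear ribonucleoprotein particles, each an RNA on a ring of proteins, with U1 and U2 recognising the intron and the U4/U6.U5 particle bringing the catalytic core. SR proteins bind exons and mostly favour their inclusion, whereas hnRNPs coat the transcript and often favour skipping, and muscle transcripts of the heart switch to adult isoforms after birth. RNA levels of these genes do not measure splicing itself.

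Values are RPKM, read counts scaled to transcript length and library size. Library sizes estimated from the values lay between 27.6 and 41.1 M reads. Changes are differences of log2(RPKM + 1) with their standard error, tested with limma on the 10668 entries that reached 1 RPKM in 2 or more libraries. Adding 1 RPKM understates the change of entries near 1 RPKM. A gene is called where the p-value, adjusted over those entries by the method of Benjamini and Hochberg, lies under 0.05. The median of all tested entries was -0.29 in RV P7 against RV P0 and -0.31 in LV P7 against LV P0, and changes are read against that shift; after upper-quartile scaling it was -0.02 and -0.03. Summed over all entries, the RPKM of a library came to about 310410 to 342370 in RV P7, against 396140 to 415570 in RV P0, and to 319070 to 339400 in LV P7, against 393860 to 401690 in LV P0. The RefSeq entry NM_008710 stood at 0.128 to 0.205 RPKM in 7 libraries, namely replicates 2 and 3 of RV P3, LV P3 and LV P7 and replicate 2 of RV P7, and above 1 RPKM in the other 10. The libraries therefore differ by more than chamber and age. No P0 library was low, so the split runs partly with age, and the labels give no reason for it. In bulk tissue, fewer cells of a type and less RNA per cell cannot be told apart.

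Promoter sequences of 3 genes are shown because their RNAs differ in what follows. Snrpg was among the largest falls, Sf3a3 had the largest LV fall of a family that shared a motif, and Srsf5 was not called in either chamber. Each run is the 250 bases before a RefSeq transcription start (GRCm38.p6, plus strand, 5′ to 3′), in lower case with 3 motifs in capitals on either strand. These are CCGGAAG (reverse CTTCCGG), the core bound by ETS factors, GGGCGG (reverse CCGCCC), the GC box, and CCAAT (reverse ATTGG).
Snrpg, chr6:86371290-86371539: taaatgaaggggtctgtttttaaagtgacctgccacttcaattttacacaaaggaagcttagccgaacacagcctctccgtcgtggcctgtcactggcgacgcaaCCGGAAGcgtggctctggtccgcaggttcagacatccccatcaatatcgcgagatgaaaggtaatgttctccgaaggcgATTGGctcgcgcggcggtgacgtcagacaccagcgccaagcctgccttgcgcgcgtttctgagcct
Sf3a3, chr4:124714611-124714860: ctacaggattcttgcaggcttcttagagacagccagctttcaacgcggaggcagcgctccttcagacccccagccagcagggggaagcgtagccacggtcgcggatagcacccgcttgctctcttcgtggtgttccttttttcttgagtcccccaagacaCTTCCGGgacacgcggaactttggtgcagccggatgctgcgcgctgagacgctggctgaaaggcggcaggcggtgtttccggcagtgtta
Srsf5, chr12:80945249-80945498: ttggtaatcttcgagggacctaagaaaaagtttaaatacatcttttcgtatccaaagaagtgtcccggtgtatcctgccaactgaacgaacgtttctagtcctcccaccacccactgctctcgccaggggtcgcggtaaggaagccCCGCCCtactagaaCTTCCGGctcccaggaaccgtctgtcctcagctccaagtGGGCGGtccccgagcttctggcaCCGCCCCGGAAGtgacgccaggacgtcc
Snrpg held CCGGAAG, its first base 145 bases before the start, and CCAAT at 66 bases. Sf3a3 held CCGGAAG at 90 bases. Srsf5 held CCGGAAG at 90 and 23 bases and GGGCGG at 104, 51 and 28 bases, and the ones at 28 and 23 bases overlap. The RefSeq table held a promoter for 58 of the 66 genes. CCGGAAG was in 29.3% of these, against 14.5% of 8180 promoters of genes with a tested entry and 7.05% of all 27025 promoters. It was in 6 of 7 promoters of SF3a and SF3b genes, 2 of 4 of U1 and U2 genes, 4 of 11 of SR genes, 2 of 11 of Prpf genes, 2 of 18 of hnRNP genes and 1 of 6 of Sm ring genes. GGGCGG was in 65.5% of the 58, against 61.1% of promoters of genes with a tested entry and 32.9% of all, and CCAAT was in 48.3%, against 37.2% and 34.5%. A match describes letters and not a bound site.

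Of the 66 genes, 60 passed the expression filter. The highest entry of Snrpn, a second SmB-type gene, reached at most 0.0699 RPKM in any library. The highest entry averaged 0.326 RPKM for Hnrnpa3, 0.150 for Hnrnpr, 0.00492 for Hnrnpd, 0.143 for Srsf12 and 0.0616 for Hnrnpa1l2-ps2. Genes with several listed entries, such as Snrpn, Hnrnpd and Hnrnpr, may lack the reads that their entries share, so such a value is not the total of the gene. Hnrnpk had the highest mean of the 66, 253 RPKM, followed by Snrpd2 with 132 and Srsf2 with 112 RPKM.

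By P7, 50 of the 60 tested genes had fallen in the RV and 54 in the LV, and limma called 0 higher in either chamber (0 also at an unadjusted p under 0.05). Of all tested entries 46.1% were called lower and 9.81% higher in RV P7, and 53.0% lower and 11.8% higher in LV P7. The median change of the 60 genes was -0.56 in the RV, against -0.29 over all entries, and -0.65 in the LV, against -0.31. After upper-quartile scaling 25 genes were lower and 1 higher in RV P7, with 20.5% of entries lower and 20.3% higher, and 37 were lower and 0 higher in LV P7, with 26.4% and 24.0%. The scaled medians were -0.27 in the RV and -0.32 in the LV. Every P7 library lay below every P0 library in 52 of the 60 genes in the RV, where this held for 56.4% of entries, and in 56 in the LV, where it held for 57.0%. Without RV P7 replicate 1 the RV counts were 30 lower and 1 higher, from a single P7 library that is assumed to vary like the other groups. Among genes with 1 listed entry 42 of 46 fell in the RV and 44 in the LV, and among genes with several 8 and 10 of 14.

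**Figure D1:**
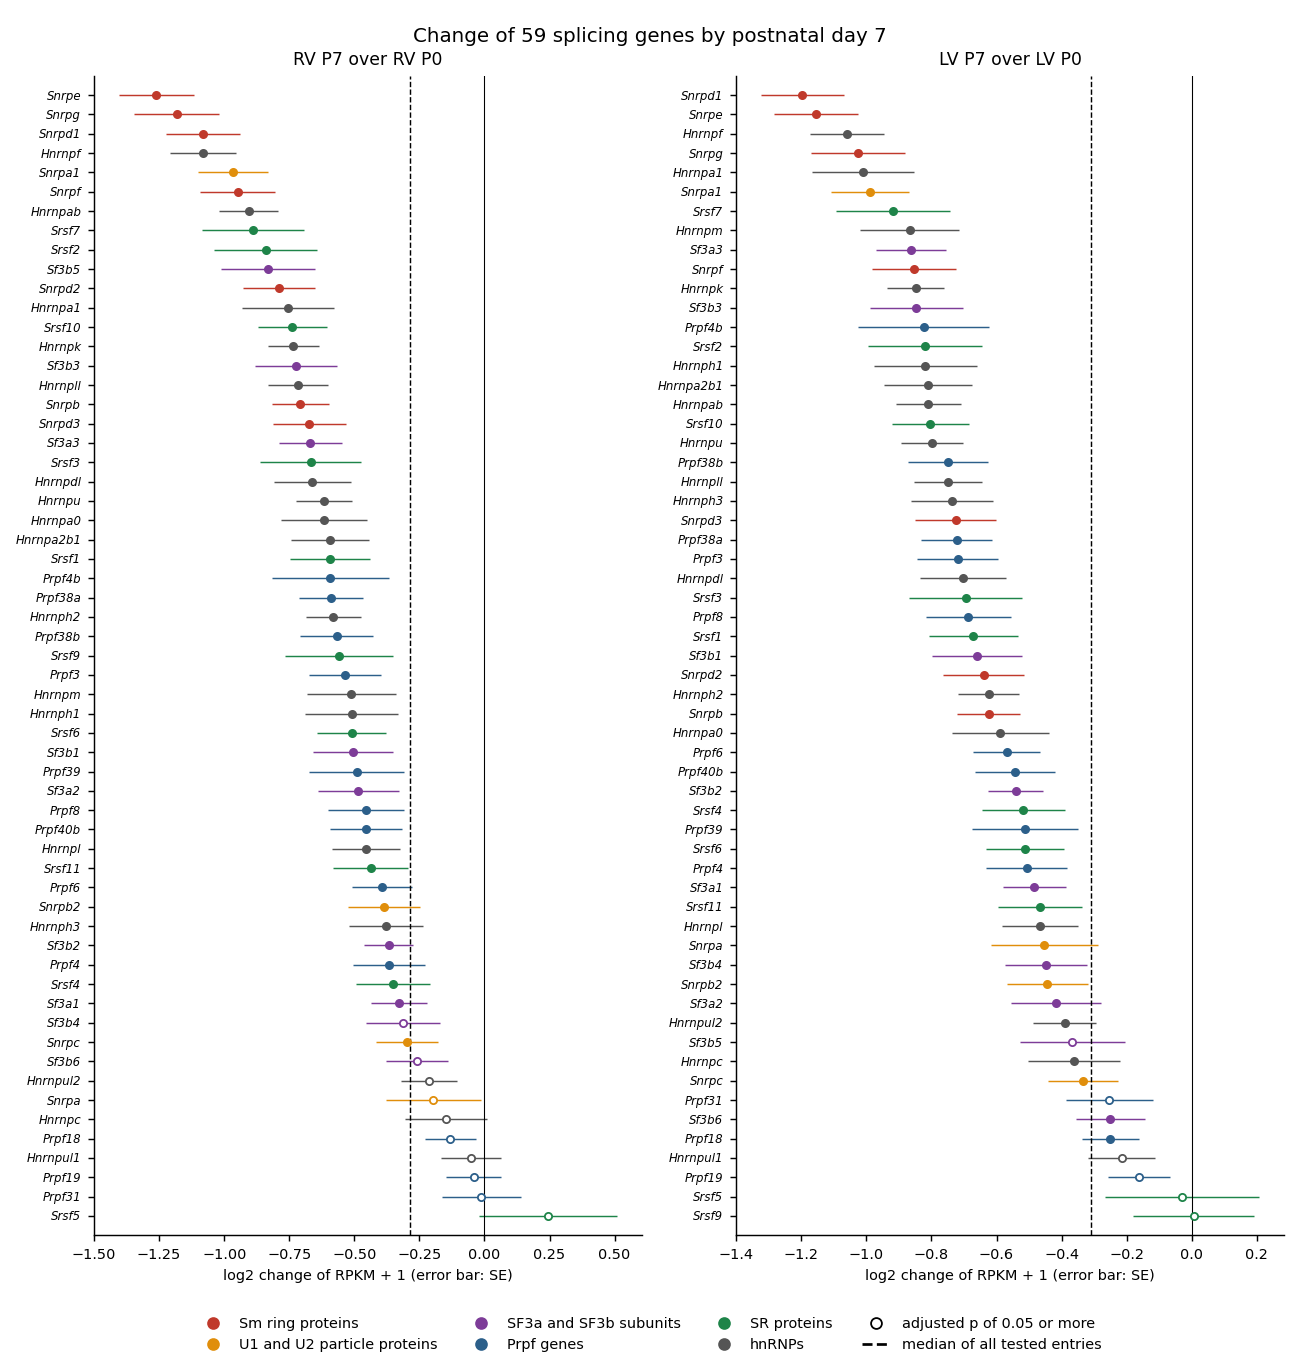
Change in log2(RPKM + 1) of 59 of the 60 tested genes, RV P7 over RV P0 on the left and LV P7 over LV P0 on the right, ranked by size. Bars are SE, colours mark the role, open points are not called and the dashed line is the median of all tested entries (-0.29 in the RV, -0.31 in the LV). On this scale, which understates falls of low entries, Snrpe has the largest fall in the RV and Snrpd1 in the LV. At the other end stand Srsf5 in the RV and Srsf9 in the LV.

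**Figure D2:**
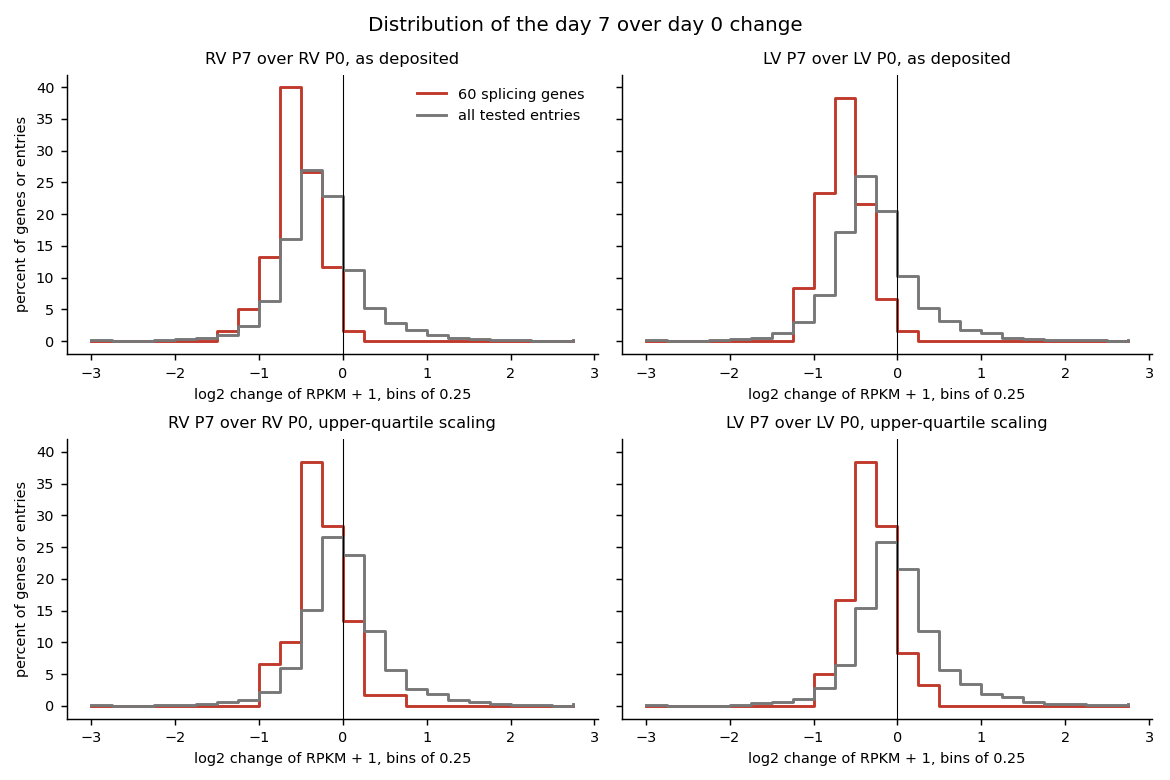
Percent of the 60 splicing genes and of all tested entries in bins of the change in log2(RPKM + 1), RV P7 over RV P0 on the left and LV P7 over LV P0 on the right, as deposited above and after upper-quartile scaling below. The medians of the 60 genes are -0.56 and -0.65 as deposited and -0.27 and -0.32 after scaling, against -0.29, -0.31, -0.02 and -0.03 over all entries.

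The summed RPKM of the 66 genes was 2526 ± 201 in RV P0, 2005 ± 116 in RV P3 and 1605 ± 194 in RV P7 (SD, n = 3, 3 and 2). LV libraries summed to 2696 ± 116 at P0, 2131 ± 247 at P3 and 1642 ± 42.4 at P7 (SD, n = 3 each). P7 and P0 did not overlap in either chamber. The summed RPKM of all entries, given above, was also lower at P7 without overlap in both chambers. LV P3 had the widest spread of the LV groups, between 1855 in replicate 2 and 2328 in replicate 1.

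**Figure D3:**
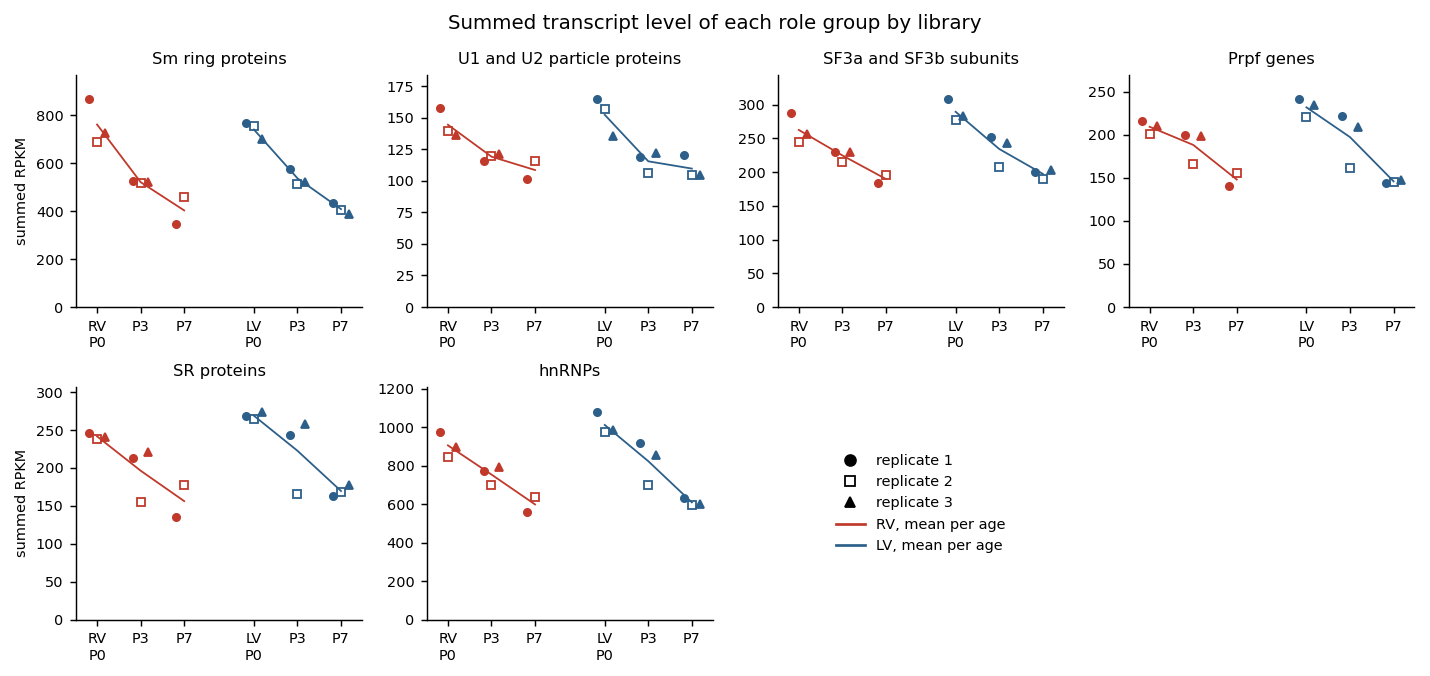
Summed RPKM of each role group in each library, RV on the left and LV on the right of each panel, ages P0, P3 and P7, with lines through the means. The Sm ring sum lies at 346 to 461 in RV P7, against 691 to 867 in RV P0, and in the SR panel replicate 2 is the lowest P3 library of both chambers.

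The Sm ring had the largest median fall of the 6 role groups, and all 7 tested genes fell in both chambers. These proteins form the ring that binds the small nuclear RNAs. The group median was -0.95 in RV P7 against RV P0 and -0.85 in LV P7 against LV P0. After upper-quartile scaling 7 were called in the RV and 6 in the LV, where Snrpd2 had an adjusted p of 0.0533. The shares of all entries called lower were 46.1% in RV P7 and 53.0% in LV P7, and 20.5% and 26.4% after scaling. Snrpe encodes SmE (chromosome 1, 133603871 to 133610280 in GRCm38). It stood at 159.5, 113 and 126 RPKM in RV P0, at 77.9, 93.6 and 74.5 in RV P3 and at 46.8 and 63.0 in RV P7. Its LV levels were 124, 125 and 133 RPKM at P0, 96.6, 89.0 and 80.4 at P3 and 61.0, 58.8 and 50.6 at P7. Every P3 library lay below every P0 library and above every P7 library of its chamber. Snrpe changed by -1.26 ± 0.14 in the RV (adjusted p = 1.13e-06) and by -1.16 ± 0.13 in the LV (adjusted p = 4.49e-07).

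Snrpg, which encodes SmG (chromosome 6, 86371540 to 86378902), stood at 29.3 and 44.0 RPKM in RV P7, against 105, 68.6 and 78.5 in RV P0. LV P7 held 33.0, 35.5 and 41.4 RPKM, against 79.1, 75.03 and 72.1 in LV P0. The ages did not overlap in either chamber, and RV P0 replicate 1 was the highest library. The change was -1.18 ± 0.16 in the RV (adjusted p = 9.45e-06) and -1.03 ± 0.15 in the LV (adjusted p = 7.42e-06). Snrpd1, which encodes SmD1 (chromosome 18, 10617796 to 10628230), had the largest fall in log2(RPKM + 1) of the 60 genes in the LV. In mean RPKM the low entry of Hnrnpf fell there by a larger ratio (3.27 to 1.05, against 93.1 to 40.0 for Snrpd1). Levels of Snrpd1 were 37.3, 45.4 and 37.4 RPKM in LV P7, against 93.4, 104 and 81.7 in LV P0 (-1.20 ± 0.13, adjusted p = 2.58e-07). RV levels were 33.8 and 40.8 RPKM at P7, against 97.7, 72.6 and 71.7 at P0 (-1.08 ± 0.14, adjusted p = 5.76e-06). These ages were separate as well.

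Snrpd2, which encodes SmD2, averaged 105 ± 29.0 RPKM in RV P7 and 179 ± 17.8 in RV P0 (SD, n = 2 and 3), a change of -0.79 ± 0.14. In LV P7 it averaged 104 ± 11.1 RPKM and in LV P0 163 ± 13.3 (SD, n = 3 each), a change of -0.64 ± 0.13. Snrpb, which encodes SmB, averaged 72.2 ± 6.87 RPKM in RV P7 and 119 ± 8.98 in RV P0, and 69.8 ± 7.81 in LV P7 and 108 ± 5.39 in LV P0 (SD, n = 2, 3, 3 and 3). All P7 libraries of both genes lay below all P0 libraries of their chamber. Snrpb changed by -0.71 ± 0.11 in the RV and -0.62 ± 0.10 in the LV, Snrpf by -0.95 ± 0.14 and -0.85 ± 0.13, and Snrpd3 by -0.67 ± 0.14 and -0.73 ± 0.13. The ratio of Snrpd2 to Snrpe, both in RPKM, was 1.90 ± 0.132 in RV P7 and 1.36 ± 0.117 in RV P0, and 1.84 ± 0.0747 in LV P7 and 1.28 ± 0.141 in LV P0. Its values did not overlap between P7 (1.80 to 1.99 in the RV, 1.76 to 1.90 in the LV) and P0 (1.25 to 1.48 in the RV, 1.17 to 1.44 in the LV). The ratio restates the smaller fall of Snrpd2 and the larger fall of Snrpe from the same values and is no separate result.

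**Figure D4:**
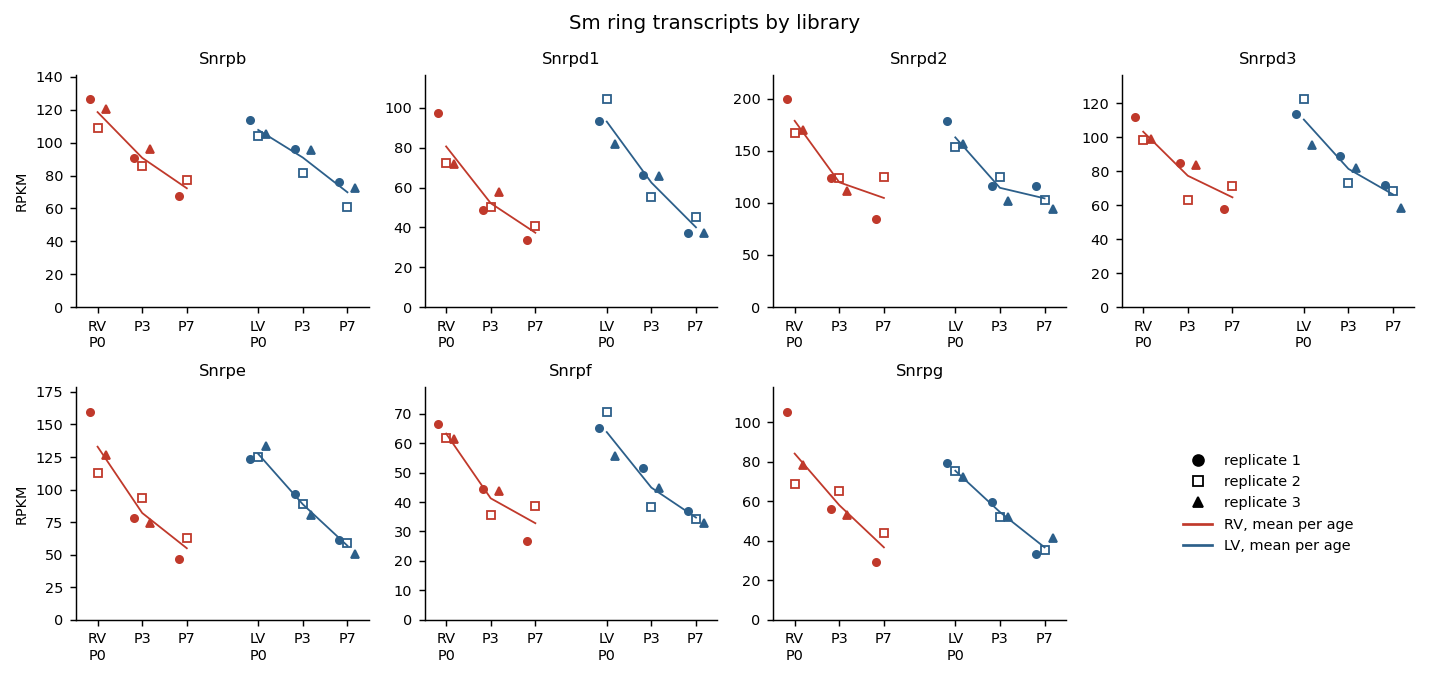
RPKM of the 7 tested Sm ring genes in each library, RV on the left and LV on the right of each panel, ages P0, P3 and P7; symbols mark the replicate and lines join the means. Snrpe stands between 46.8 and 63.0 RPKM in RV P7, against 113 to 159.5 in RV P0, and no gene has a P7 library above a P0 library of its chamber.

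Among the proteins of U1 and U2, Snrpa1 had the largest fall. Of the 4 genes 3 fell in the RV (median -0.34) and 4 in the LV (median -0.45), and after upper-quartile scaling 1 was called in each chamber. All entries were called lower in 46.1% of cases in RV P7 and 53.0% in LV P7, with medians of -0.29 and -0.31. After scaling these shares were 20.5% and 26.4%, so 1 of 4 is close to the share of all entries. Snrpa1, polypeptide A′ of U2, stood at 24.7, 20.7 and 24.3 RPKM in RV P0, 16.7, 14.1 and 16.98 in RV P3 and 10.6 and 12.2 in RV P7. LV levels were 22.2, 23.0 and 23.4 RPKM at P0, 18.03, 13.5 and 20.4 at P3 and 10.9, 11.6 and 10.6 at P7. The 3 ages were separate in both chambers, with changes by P7 of -0.97 ± 0.13 in the RV (adjusted p = 1.05e-05) and -0.99 ± 0.12 in the LV (adjusted p = 1.24e-06). Snrpb2, its U2 partner, changed by -0.39 ± 0.14 in the RV and -0.44 ± 0.12 in the LV. Snrpc, polypeptide C of U1 and the highest of the 4 with a mean of 66.9 RPKM, changed by -0.30 ± 0.12 in the RV and -0.33 ± 0.11 in the LV, close to the median of all entries; its scaled values were 0.03 and 0.003. Snrpa, polypeptide A of U1, stood at 8.63 and 10.7 RPKM in RV P7, against 13.1, 12.0 and 8.79 in RV P0. The RV groups overlapped and Snrpa was not called there (-0.20 ± 0.18, adjusted p = 0.370), whereas in the LV it fell by 0.45 ± 0.16 (adjusted p = 0.0211).

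The SF3a and SF3b subunits hold U2 at the branch point of the intron. Of 9 genes 7 fell in the RV (median -0.48) and 8 in the LV (median -0.48), with 3 and 4 called after upper-quartile scaling. Among all entries 46.1% were called lower in RV P7 and 53.0% in LV P7, or 20.5% and 26.4% after scaling. Sf3b1, the subunit that contacts the branch point, stood at 30.5 and 39.9 RPKM in RV P7, against 49.9, 47.1 and 53.3 in RV P0. LV P7 held 33.2, 35.7 and 36.5 RPKM, against 55.6, 52.1 and 61.1 in LV P0. The ages were separate in both chambers (RV -0.51 ± 0.15, adjusted p = 0.00948; LV -0.66 ± 0.14, adjusted p = 0.000392), and scaling ended the RV call (-0.19). Sf3a3 had the largest change of the LV subunits, at 13.2, 13.6 and 14.4 RPKM in LV P7, against 26.6, 26.3 and 24.4 in LV P0 (-0.86 ± 0.11, adjusted p = 1.91e-06).

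Sf3b5, a small subunit, had the largest change in the RV. It stood at 2.88 and 2.75 RPKM in RV P7, against 8.71, 4.24 and 5.14 in RV P0, with replicate 1 of P0 far above the other libraries. The RV change was -0.83 ± 0.18, adjusted p = 0.000839, and -0.57 without that library. LV P7 held 3.599, 3.13 and 3.66 RPKM, against 4.87, 4.68 and 4.70 in LV P0, and the gene was not called there (-0.37 ± 0.16, adjusted p = 0.0533). RV minus LV, the difference between these changes was -0.46 ± 0.24, adjusted p = 0.998. Sf3b6 changed by -0.26 ± 0.12, adjusted p = 0.0689 in the RV, where it was not called, and by -0.25 ± 0.11, adjusted p = 0.0447 in the LV, and was at 0.06 and 0.09 after scaling. Sf3b4 was not called in the RV (-0.31 ± 0.14, adjusted p = 0.0662). The other 4 subunits fell in both chambers, with the change of Sf3b3, a large scaffold subunit, at -0.72 ± 0.16 and -0.85 ± 0.14 in the RV and the LV, that of Sf3a2 at -0.48 ± 0.16 and -0.42 ± 0.14, that of Sf3a1 at -0.33 ± 0.11 and -0.48 ± 0.10 and that of Sf3b2 at -0.37 ± 0.10 and -0.54 ± 0.09.

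Prpf genes are named after pre-mRNA processing factors of yeast. Of 13, 10 fell in the RV (median -0.46) and 11 in the LV (median -0.57), and 2 in the RV and 8 in the LV after scaling, when 20.5% and 26.4% of all entries were lower, so the scaled RV count is a smaller share than that of all entries. Prpf8, the large protein at the catalytic core, had the highest level of the group. It stood at 43.7, 39.9 and 43.5 RPKM in RV P0, 44.9, 38.6 and 44.1 in RV P3 and 29.1 and 32.2 in RV P7. Levels in the LV were 50.4, 40.5 and 46.0 RPKM at P0, 43.8, 27.9 and 42.6 at P3 and 26.6, 26.8 and 30.3 at P7. RV P3 overlapped RV P0 and lay above P7, while LV P3 replicate 2 lay among the P7 libraries. The changes by P7 were -0.46 ± 0.15 in the RV (adjusted p = 0.0130), which scaling left at -0.14, and -0.69 ± 0.13 in the LV (adjusted p = 0.000170).

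Prpf4b, a kinase of the spliceosome, had the largest change of the Prpf genes in the LV, at 11.4, 14.4 and 12.0 RPKM in LV P7, against 21.8, 21.6 and 25.7 in LV P0 (-0.82 ± 0.20, adjusted p = 0.00158). P7 and P0 were separate. Prpf19, the core of the complex that activates the spliceosome, was not called in either chamber. It stood at 6.99 and 6.87 RPKM in RV P7, against 6.62, 7.87 and 7.05 in RV P0 (-0.04 ± 0.11, adjusted p = 0.7503). LV P7 held 6.21, 5.79 and 6.69 RPKM, against 7.001, 7.36 and 6.88 in LV P0 (-0.16 ± 0.09, adjusted p = 0.139). Prpf31 had a mean of 0.847 RPKM, near the filter, and was not called (RV -0.01 ± 0.15, adjusted p = 0.951; LV -0.25 ± 0.13, adjusted p = 0.106). Prpf18, a factor of the second step of splicing, fell in the LV (-0.25 ± 0.09, adjusted p = 0.0182), by less than the median of all entries, and was not called in the RV (-0.13 ± 0.10, adjusted p = 0.260); its scaled values were 0.17 in the RV and 0.07 in the LV. Prpf3, Prpf4 and Prpf6, proteins of the U4/U6.U5 particle, fell in both chambers (RV -0.54 ± 0.14, -0.37 ± 0.14 and -0.39 ± 0.12; LV -0.72 ± 0.12, -0.51 ± 0.12 and -0.57 ± 0.10). So did Prpf38a (RV -0.59 ± 0.12, LV -0.72 ± 0.11), Prpf38b (RV -0.57 ± 0.14, LV -0.75 ± 0.12) and Prpf40b (RV -0.45 ± 0.14, LV -0.54 ± 0.12).

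Of 10 tested SR genes 9 fell in the RV (median -0.58) and 8 in the LV (median -0.59), and 4 and 6 after scaling. Over all entries 46.1% were called lower in RV P7 and 53.0% in LV P7, or 20.5% and 26.4% after scaling. Srsf2, also known as SC35, was the most abundant. It stood at 137, 134 and 135 RPKM in RV P0, 111, 70.4 and 117 in RV P3 and 70.2 and 80.1 in RV P7. LV levels were 145, 147 and 149 RPKM at P0, 133, 80.0 and 142 at P3 and 77.7, 79.2 and 92.4 at P7. Replicate 2 of P3 lay within the range of P7 in both chambers, and replicates 1 and 3 lay above it. The changes by P7 were -0.84 ± 0.20 in the RV (adjusted p = 0.00154) and -0.82 ± 0.18 in the LV (adjusted p = 0.000535). The 11 SR genes summed to 155 RPKM in RV P3 replicate 2, below 213 and 222 in replicates 1 and 3, and to 166 RPKM in LV P3 replicate 2, below 244 and 259.

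Srsf7 had the largest change of the SR genes. It stood at 0.986 and 1.57 RPKM in RV P7, against 3.36, 2.46 and 3.87 in RV P0 (-0.89 ± 0.20, adjusted p = 0.000936). LV P7 held 1.30, 1.11 and 1.99 RPKM, against 3.83, 2.88 and 4.22 in LV P0 (-0.92 ± 0.18, adjusted p = 0.000180). P7 and P0 were separate in both chambers, but this is 1 of 4 entries of the gene and not its total. Srsf10 fell by 0.74 ± 0.13 in the RV and by 0.80 ± 0.12 in the LV. Srsf1, a founding SR protein, averaged 1.81 ± 0.0303 RPKM in RV P7 and 3.27 ± 0.624 in RV P0, and 1.95 ± 0.505 in LV P7 and 3.66 ± 0.279 in LV P0 (SD, n = 2, 3, 3 and 3). It changed by -0.59 ± 0.15 in the RV and -0.67 ± 0.14 in the LV, and its other entry, NM_001078167, was not called (RV -0.31, LV -0.10). Srsf3 changed by -0.67 ± 0.19 in the RV and -0.70 ± 0.17 in the LV, Srsf6 by -0.51 ± 0.13 and -0.51 ± 0.12 and Srsf4 by -0.35 ± 0.14 and -0.52 ± 0.13, and all 3 were called. After scaling Srsf3 was not called in the RV (-0.38), and scaled values of Srsf6 and Srsf4 are not given. Srsf11 was called too (RV -0.44 ± 0.14, LV -0.47 ± 0.13), at a mean of 0.823 RPKM.

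Srsf5 was not called in either chamber and Srsf9 not in the LV. Srsf5 stood at 15.4 and 36.4 RPKM in RV P7, against 18.6, 24.9 and 17.01 in RV P0, so 1 P7 library lay below and the other above all P0 libraries. LV P7 held 23.4, 32.2 and 19.9 RPKM, against 27.9, 28.1 and 20.3 in LV P0, and the groups overlapped. Its changes were 0.25 ± 0.27, adjusted p = 0.443 in the RV and -0.03 ± 0.24, adjusted p = 0.918 in the LV. The RV value was -0.35 without RV P7 replicate 2 and 0.84 without RV P7 replicate 1 (adjusted p = 0.0170), so its direction rests on 1 library. Srsf9 stood at 1.33 and 2.97 RPKM in RV P7, against 4.22, 2.69 and 3.70 in RV P0; the groups overlapped, and the change was -0.56 ± 0.21, adjusted p = 0.0287. Its LV levels were 2.59, 3.08 and 3.62 RPKM at P7, against 3.71, 2.60 and 2.94 at P0 (0.01 ± 0.19, adjusted p = 0.977). The difference of its change, RV minus LV, was not called (-0.57 ± 0.28, adjusted p = 0.998).

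**Figure D5:**
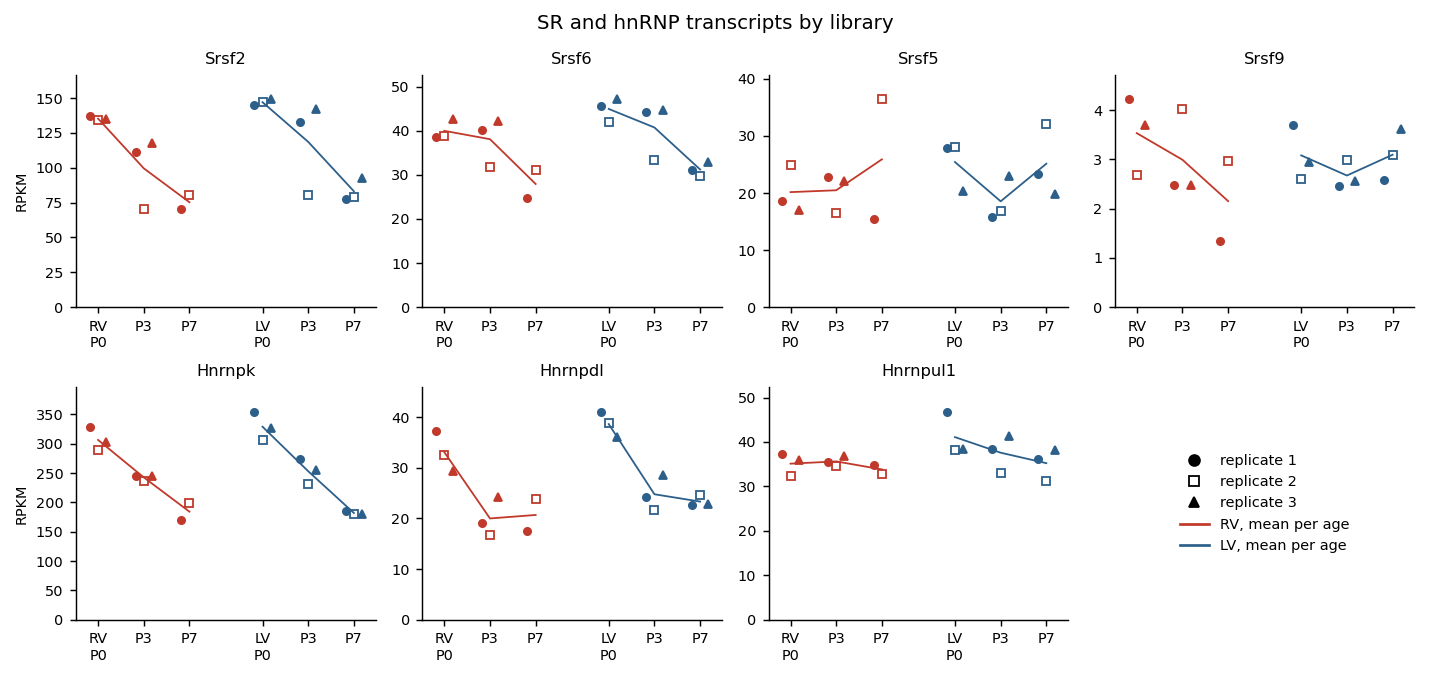
RPKM of 4 SR and 3 hnRNP genes in each library, RV on the left and LV on the right of each panel, ages P0, P3 and P7; symbols mark the replicate and lines join the means. Srsf2 replicate 2 of P3 lies at 70.4 RPKM in the RV and 80.0 in the LV, Srsf5 stands at 15.4 and 36.4 RPKM in RV P7, and Hnrnpdl at P3 overlaps P7 in both chambers.

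Among the hnRNPs 14 of 17 tested genes fell in the RV (median -0.59) and 16 in the LV (median -0.75). After scaling 8 were lower and 1 higher in the RV and 12 were lower in the LV. For all entries the shares called lower were 46.1% in RV P7 and 53.0% in LV P7, and 20.5% and 26.4% after scaling. Hnrnpk, a protein that binds C-rich RNA, was the most abundant. It stood at 328, 289 and 302 RPKM in RV P0, 246, 237 and 245 in RV P3 and 169.8 and 199 in RV P7. LV levels were 354, 306 and 327 RPKM at P0, 274, 231 and 255 at P3 and 185, 180.0 and 180.4 at P7. All 3 ages were separate in both chambers. By P7 it changed by -0.73 ± 0.10 in the RV (adjusted p = 7.44e-06) and -0.85 ± 0.09 in the LV (adjusted p = 1.93e-07).

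Hnrnpf, which binds G-rich runs, had the largest change of the hnRNPs in both chambers. Its entry NM_133834, 1 of 7, stood at 0.914 and 1.11 RPKM in RV P7, against 3.009, 3.03 and 3.74 in RV P0. LV P7 held 0.877, 1.27 and 1.008 RPKM, against 3.05, 3.10 and 3.66 in LV P0. P7 lay below P0 throughout, and the changes were -1.08 ± 0.13 in the RV (adjusted p = 1.62e-06) and -1.06 ± 0.11 in the LV (adjusted p = 2.79e-07). Of its other tested entries NM_001166429 fell in both chambers (RV -1.08, LV -0.87) and NM_001166427 was not called in either (RV -0.22, LV -0.23). Hnrnpa1, a factor that often opposes exon inclusion, stood at 4.63 and 4.37 RPKM in RV P7, against 9.82, 7.10 and 8.12 in RV P0 (-0.76 ± 0.18, adjusted p = 0.00148). Its LV levels were 4.28, 4.24 and 3.72 RPKM at P7, against 9.04, 9.37 and 9.27 at P0 (-1.011 ± 0.16, adjusted p = 2.17e-05). The ages were separate, but near-identical pseudogene copies of Hnrnpa1 make its counts uncertain.

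Hnrnpab changed by -0.91 ± 0.11 in the RV and -0.81 ± 0.10 in the LV, and Hnrnpm by -0.51 ± 0.17 and -0.87 ± 0.15. The Hnrnpm values are of its highest entry, and its other tested entry fell by less in the LV (RV -0.44, LV -0.42). Hnrnpll, Hnrnpa0 and Hnrnph2 fell in both chambers (RV -0.72 ± 0.12, -0.62 ± 0.17 and -0.58 ± 0.11; LV -0.75 ± 0.10, -0.59 ± 0.15 and -0.62 ± 0.09). Hnrnpu, a nuclear matrix protein, fell by 0.62 ± 0.11 in the RV and by 0.80 ± 0.10 in the LV. Hnrnpl, which binds CA repeats, fell by 0.45 ± 0.13 and by 0.47 ± 0.12, and after scaling was no longer called (RV -0.13, LV -0.13). Hnrnpa2b1 entry NM_016806 fell by 0.59 ± 0.15 in the RV and by 0.81 ± 0.13 in the LV, whereas its other entry, NM_182650, was not called (RV 0.02, LV -0.20). The RV value of NM_016806 was -0.27 after scaling, where it was not called, and -0.40 without RV P7 replicate 1. No gene of the 66 had tested entries called in opposite directions by P7.

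Hnrnpul1 and Hnrnpc had the changes nearest to 0 of the hnRNPs. Hnrnpul1, a relative of Hnrnpu, stood at 34.8 and 32.8 RPKM in RV P7, against 37.2, 32.2 and 35.9 in RV P0, and the groups overlapped. It was not called in the RV (-0.05 ± 0.11, adjusted p = 0.719) or the LV (-0.21 ± 0.10, adjusted p = 0.0720). Scaling moved the RV value to 0.27 and called it higher (adjusted p = 0.0182), and moved the LV value to 0.12. Hnrnpc entry NM_001170983, 1 of 4, averaged 3.89 ± 0.247 RPKM in RV P7 and 4.45 ± 0.723 in RV P0 (SD, n = 2 and 3; -0.15 ± 0.16, adjusted p = 0.433), and fell in the LV (-0.36 ± 0.14, adjusted p = 0.0312). Scaling left the LV value of this entry at -0.08, where it was not called. Summed over its entries, Hnrnpc was called lower in the RV as well (-0.43). Hnrnpul2 fell in the LV (-0.39 ± 0.10) and was not called in the RV (-0.21 ± 0.11, adjusted p = 0.102).

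By P3, 23 of the 60 genes had fallen in the RV and 24 in the LV, and limma called 0 higher (0 at an unadjusted p under 0.05). Of all tested entries 21.5% were called lower and 9.72% higher in the RV, and 20.6% lower and 7.26% higher in the LV. The medians were -0.22 in the RV and -0.28 in the LV, against -0.09 and -0.13 over all entries. Of the 7 Sm ring genes 7 fell in the RV and 6 in the LV, of the 13 Prpf genes 2 in the RV and 3 in the LV, of the 10 SR genes 3 and 1, and of the 17 hnRNPs 7 and 7. After upper-quartile scaling 17 were lower and 1, Prpf18, higher in the RV, with 15.4% of entries lower and 16.2% higher, and 10 were lower in the LV, with 12.1% and 11.7%. The counts depend on single libraries: the RV count was 13 without RV P0 replicate 1 and 13 without RV P3 replicate 2, and the LV count 12 without LV P0 replicate 1 and 10 without LV P3 replicate 2. With the NM_008710 split as a term, 13 genes were lower in the RV (15.9% of entries) and 12 in the LV (13.2%). Without the 7 low libraries, which leaves 1 P3 library in each chamber, they were 5 (6.35%) and 1 (2.58%), with medians of -0.22 in the RV and -0.17 in the LV, against -0.22 and -0.28 with all libraries. Erythroid marker sums were 418 to 609.6 RPKM in RV P3, against 1281 to 2922 in RV P0, and 528 to 537 in LV P3, against 1571 to 2409.6 in LV P0, and atrial sums 171 to 245 in RV P3, against 871 to 1221 in RV P0, and 269 to 399 in LV P3, against 1006 to 1259 in LV P0; their part in the P3 changes was not tested.

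Hnrnpdl, the gene of an hnRNP D-like protein, had the largest P3 fall in log2(RPKM + 1) of the 60 genes in both chambers. In mean RPKM the low entries of Srsf11 (1.20 to 0.732) and Hnrnpf (3.27 to 2.08) fell by a larger ratio in the LV. Hnrnpdl stood at 37.3, 32.5 and 29.4 RPKM in RV P0, 19.1, 16.7 and 24.1 in RV P3 and 17.5 and 23.8 in RV P7. LV levels were 41.0, 38.8 and 36.1 RPKM at P0, 24.2, 21.6 and 28.6 at P3 and 22.6, 24.6 and 22.8 at P7. P3 lay below P0 and overlapped P7 in both chambers. The change by P3 was -0.71 ± 0.13, adjusted p = 0.000470 in the RV and -0.63 ± 0.13, adjusted p = 0.00171 in the LV, and by P7 it was -0.66 ± 0.15 and -0.70 ± 0.13. Snrpe fell by P3 as well (RV -0.68 ± 0.13, LV -0.52 ± 0.13), as did Snrpd1 (RV -0.61 ± 0.13, LV -0.57 ± 0.13). At the other end, Prpf18 (RV 0.11 ± 0.09, LV 0.02 ± 0.09), Snrpa (RV 0.11 ± 0.16) and Hnrnph3 (RV 0.08 ± 0.13) were not called.

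From P3 to P7, 18 genes fell in the RV and 39 in the LV, and limma called 0 higher (0 at an unadjusted p under 0.05). Of all tested entries 14.8% were called lower and 2.5% higher in the RV, and 27.9% and 6.56% in the LV. Whether the chambers differ in this step was not tested. After upper-quartile scaling 4 were lower and 0 higher in the RV, with 4.56% of entries lower and 6.71% higher, and 17 were lower and 2, Sf3b6 and Snrpc, higher in the LV, with 12.1% and 14.2%. The RV count was 0 without RV P7 replicate 1, 10 without RV P3 replicate 1 and 7 without RV P3 replicate 3, and the LV count 19 without LV P3 replicate 1 and 20 without LV P3 replicate 3. With the NM_008710 split as a term the counts were 18 in the RV (15.5% of entries) and 38 in the LV (27.5%). Without the 7 libraries low for NM_008710, which leaves 1 library at P3 and 1 at P7 in each chamber, 1 gene was lower in the RV (0.446% of entries) and 11 in the LV (4.03%), with medians of -0.51 and -0.50, against -0.33 and -0.37 with all libraries.

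Srsf10, an SR protein that controls splicing of calcium-handling transcripts in the mouse heart, was among the largest falls of this step in both chambers. It stood at 21.1, 17.8 and 18.4 RPKM in RV P0, 17.6, 15.9 and 17.8 in RV P3 and 10.1 and 12.0 in RV P7. LV levels were 19.995, 21.2 and 25.3 RPKM at P0, 23.6, 17.5 and 21.4 at P3 and 14.0, 11.5 and 11.4 at P7. P7 lay below P3 and P0 in both chambers, and P3 overlapped P0 in both. From P3 the change was -0.59 ± 0.13, adjusted p = 0.00734 in the RV and -0.72 ± 0.12, adjusted p = 0.000283 in the LV. Hnrnpf (-0.68 ± 0.13) and Snrpg (-0.67 ± 0.16) fell most in the RV, and Hnrnph1 (-0.67 ± 0.16) and Prpf4b (-0.66 ± 0.20) followed Srsf10 in the LV.

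Between the chambers, limma without pairing called 0 of the 60 genes at P0, P3 or P7 or over the ages. Of all entries 0.0844% were lower and 0.0562% higher in the RV at P0, 0.225% and 0.6% at P3, 0.0844% and 0.075% at P7, and 0.816% and 0.797% over the ages. At an unadjusted p under 0.05 there were 4 genes at P0, 3 at P3, 0 at P7 and 10 over the ages, all lower in the RV. The share of all entries at that unadjusted threshold was not computed, so these counts have no background. The median of all entries also lay below 0, at -0.06 at P0, -0.02 at P3 and -0.03 over the ages. RV and LV libraries of the same age and number deviated together. That pairing is inferred from these same values, and the limma fit with the pair as a block is given beside the unpaired one. At P3 the blocked fit called 1 gene, Hnrnpdl (-0.30 ± 0.08, adjusted p = 0.0283), with 2.93% of entries lower and 3.06% higher. Over the ages it called 5 genes, all lower in the RV, with 5.63% of entries lower and 3.02% higher. Among them were Hnrnpdl (-0.24 ± 0.05, adjusted p = 0.00526), Snrpd1 (-0.20 ± 0.06, adjusted p = 0.0386), Prpf39 (-0.19 ± 0.05, adjusted p = 0.0411) and Srsf10 (-0.22 ± 0.06, adjusted p = 0.0458). In Hnrnpdl the RV library lay below its LV partner in 8 of 8 pairs, by 0.728 to 6.68 RPKM. The blocked fit used these same pairs, so this restates its call and adds no evidence. The share of all entries below in 8 of 8 pairs was not computed. In the unpaired fit, the lowest value at P0 was -0.32 ± 0.24 in Srsf5 and the highest 0.24 ± 0.16 in Sf3b5. At P3 these were -0.30 ± 0.13 in Hnrnpdl and 0.18 ± 0.16 in Snrpa, and at P7 -0.42 ± 0.21 in Srsf9 and 0.22 ± 0.17 in Hnrnpm.

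The change by P7 was not called different between the chambers in any of the 60 genes with limma (0 at an unadjusted p under 0.05), and 0.0187% of entries were lower and 0.0187% higher. RV minus LV, the lowest differences of the change were -0.57 ± 0.28 in Srsf9, -0.46 ± 0.24 in Sf3b5 and -0.16 ± 0.22 in Snrpg, and the highest 0.36 ± 0.19 in Hnrnph3, 0.35 ± 0.23 in Hnrnpm and 0.31 ± 0.24 in Hnrnph1. The Snrpg value changed sign without RV P0 replicate 1 or RV P7 replicate 1. The Hnrnpm value is of its highest entry, and its other tested entry fell by a similar amount in both chambers (RV -0.44, LV -0.42).

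The other splicing lists are set against the 46.1% of all entries called lower in RV P7 and the 53.0% in LV P7, or 20.5% and 26.4% after upper-quartile scaling. Of 37 further spliceosome subunits 28 fell and 0 rose by P7 in the RV (median -0.44), led by the lariat-releasing helicase Dhx15 (-0.92 ± 0.12), and 30 fell and 1, Slu7, rose in the LV (median -0.50), led by the helicase Aqr (-0.76 ± 0.12). After scaling 6 were lower and 2 higher in the RV, a smaller share lower than among all entries, and 15 lower and 1 higher in the LV. Of 9 minor spliceosome proteins, which remove a rare class of introns, 4 fell in the RV and 5 in the LV, with Snrnp35 (RV -1.117 ± 0.13, LV -0.92 ± 0.12) and Snrnp25 (RV -1.08 ± 0.16, LV -0.96 ± 0.14) among them, shares close to those of all entries. After scaling 3 were lower and 1 higher in the RV (median -0.13) and 3 lower in the LV (median -0.0733). Of 18 genes that assemble and import the Sm particles 16 fell in the RV (median -0.60) and 15 in the LV (median -0.64). Prmt5, which methylates Sm proteins, changed by -0.60 ± 0.10 in the RV and -0.89 ± 0.09 in the LV, and Sart3, which helps U4 rejoin U6, by -0.85 ± 0.15 and -0.98 ± 0.14. Of these 18, 10 were lower in each chamber after scaling. SR protein kinases and partners fell in 11 of 15 genes in the RV and 13 in the LV, among them the muscle kinase Srpk3 (RV -0.80 ± 0.18, LV -0.79 ± 0.16); 4 and 8 were lower after scaling. Of 6 exon junction complex genes 5 fell in the RV and 6 in the LV, with the largest change in Rnps1 (RV -1.03 ± 0.17, LV -1.27 ± 0.15), and 3 were lower in each after scaling. Other nuclear RNA-binding proteins fell in 16 of 18 genes in the RV and 17 in the LV, among them Ewsr1 (RV -0.79 ± 0.15, LV -1.04 ± 0.13), and in 8 and 10 after scaling.

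Of 13 tested splicing regulators of muscle, 10 fell and 1 rose in each chamber; after scaling 6 fell in the RV and 9 in the LV, and 1 rose in each. The riser as deposited was Rbfox1, a regulator of heart and muscle exons, at 1.46 ± 0.788 RPKM in RV P7 and 0.179 ± 0.0423 in RV P0 (SD, n = 2 and 3; 1.02 ± 0.15, adjusted p = 1.67e-05). LV P7 averaged 1.25 ± 0.183 RPKM and LV P0 0.177 ± 0.0397 (SD, n = 3 each; 0.93 ± 0.13, adjusted p = 7.92e-06). Rbpms changed by -1.41 ± 0.12 in the RV and -1.16 ± 0.11 in the LV, Khdrbs3 by -0.98 ± 0.11 and -1.23 ± 0.10, and Rbm24, needed for exons of sarcomere genes, by -0.69 ± 0.11 and -0.96 ± 0.09. Rbm20, the regulator of titin splicing, changed by -0.33 ± 0.14 in the RV (adjusted p = 0.0463) and -0.63 ± 0.12 in the LV; the RV value was -0.02 after scaling and was not called. Ptbp1 was not called (RV -0.17 ± 0.12, LV -0.06 ± 0.11). The highest entries of Mbnl1, Celf1 and Rbfox2 averaged 0.724, 0.416 and 0.572 RPKM and were not tested.

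Marker counts are set against all tested entries, 46.1% called lower and 9.81% higher in RV P7, and 53.0% and 11.8% in LV P7. Markers of dividing cells fell together with the splicing genes. All 15 tested cycling-cell genes fell in both chambers (median -1.14 in the RV and -1.44 in the LV), and the 17 listed summed to 213 to 214 RPKM in RV P7, against 464 to 617 in RV P0, and to 206 to 224 in LV P7, against 572 to 676 in LV P0. Of 10 endothelial genes 5 rose and 1 fell in the RV and 7 rose in the LV, with sums of 350.0 to 359 RPKM in RV P7, against 241 to 299 in RV P0, and of 448 to 505 in LV P7, against 241 to 271 in LV P0. Of 9 fibroblast genes 6 rose in the RV and 4 in the LV, with sums of 1211 to 1391 RPKM in RV P7, against 596 to 828 in RV P0, and of 1128 to 1243 in LV P7, against 673 to 910.2 in LV P0. Of 8 macrophage genes 7 rose and 1 fell in the RV and 6 rose and 1 fell in the LV, summing to 99.8 to 101 RPKM in RV P7, against 57.2 to 68.7 in RV P0, and to 86.7 to 103 in LV P7, against 65.4 to 74.6 in LV P0. Of 8 cardiomyocyte genes 3 fell and 2 rose in each chamber, and they summed to 27686 to 31120.0 RPKM in RV P7, against 31831 to 40756 in RV P0, and to 27205 to 28990.0 in LV P7, against 32845 to 37804 in LV P0. Their part in the fall of the splicing genes was not tested.

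The same shares of all entries, 46.1% lower and 9.81% higher in RV P7 and 53.0% and 11.8% in LV P7, apply to the lists that follow. Of 7 tested atrial genes 4 fell and 1 rose in each chamber. The atrial list summed to 80.0 to 209 RPKM in RV P7, against 871 to 1221 in RV P0, and 234 to 344 in LV P7, against 1006 to 1259 in LV P0. Of 6 erythroid genes 3 fell in the RV and 1 fell and 1 rose in the LV. The erythroid sums were 1114 to 1136 RPKM in RV P7, against 1281 to 2922 in RV P0, and 1438 to 1888 in LV P7, against 1571 to 2409.6 in LV P0. Of 8 epicardial genes 4 fell in the RV and 5 in the LV, and 1 rose in each. Epicardial sums were 69.3 to 69.5 RPKM in RV P7, against 53.8 to 111 in RV P0, and 50.2 to 61.5 in LV P7, against 50.3 to 94.0 in LV P0. Of 6 smooth muscle and pericyte genes 3 fell and 2 rose in each chamber. Their list summed to 619 to 747 RPKM in RV P7, against 725 to 847 in RV P0, and 520.2 to 547 in LV P7, against 696 to 821 in LV P0. Of 4 lymphoid and granulocyte genes 2 fell and 2 rose in the RV and 1 fell and 2 rose in the LV. This list summed to 6.95 to 10.3 RPKM in RV P7, against 7.70 to 24.7 in RV P0, and 12.1 to 13.7 in LV P7, against 16.5 to 20.7 in LV P0. The part of these lists in the fall of the splicing genes was not tested either. Sln, the sarcolipin gene of the atria, was at 0 in 15 of 17 libraries, and Cd3e, which marks T cells, in 8. The other listed atrial genes were above 0 in every library, with means of 335 RPKM for Nppa and 169 for Myl7.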

How the data were processed

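RNA of the ventricles was measured in 17 libraries, 3 for each chamber and age and 2 for RV P7. Values were deposited by the authors and are taken as RPKM, 1 for each RefSeq mRNA entry in a library; the unit is inferred from the values, since low values of an entry step with transcript length and library size. Library sizes were estimated from those steps, and 50.3 to 53.6% of low values came out whole within 0.05 reads. The submitters' processing notes name STAR 2.4.0j and mm10. Which program counted the reads, on which annotation, and how it treated reads shared between entries is not given in the sources seen here. No library was a copy of another.

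Entries were named from RefSeq (20379) and GENCODE (76) tables, and 169 stayed unnamed. Groups came from the labels. All 17 libraries entered 1 limma fit (limma 3.58.1, R 4.3.3; Python 3.11.15, numpy 2.4.6, pandas 2.3.3, matplotlib 3.10.9) on log2(RPKM + 1) of entries with 1 RPKM or more in at least 2 libraries, with a trended variance prior, two-sided p-values and Benjamini-Hochberg adjustment over the 10668 entries tested. P-values measure the spread between libraries described as biological replicates. The script was tested on simulated data. The RV and LV library of the same age and replicate number deviated together in all 8 pairs (r of 0.269 to 0.587). In 16 pairs of unlike number r was -0.402 to 0.0940. Deviations are from group means of 2 or 3 libraries, which pushes unlike pairs below 0, so the pairs are not independent. The numbers were taken to pair the chambers, an inference from the same values that were then tested. Across ages, same-numbered libraries of a chamber had r of -0.0730 to 0.18 and were not taken as pairs, although NM_008710 is high in replicate 1 and low in the other replicates at both P3 and P7. Alternatives were upper-quartile scaling, a pseudocount of 0.1 RPKM, no filter, no variance trend, summed entries, the replicate block and each library left out. The genes, lists, tests and alternatives were chosen with earlier results of these data known. Genes named with values are, by rule, the most abundant and the extremes of each role, the 8 lowest and 8 highest changes by P7 in each chamber, the 3 lowest and highest of each other comparison, genes called between chambers and a list of well-known splicing genes, with up to 3 called genes in each direction from the other splicing lists; not all are given in every comparison, and 1 gene is not reported here by name.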

Additional observations from a re-analysis of the deposited data

How the results depend on the processing

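With upper-quartile scaling, which centres all entries near 0, 25 genes were lower and 1 higher in RV P7 against RV P0, 1 was higher in RV P3 against RV P0, 10 were lower in LV P3 against LV P0, 4 in RV P7 against RV P3, and 17 were lower and 2 higher in LV P7 against LV P3. Scaling reversed these log2 changes in RV P7 against RV P0: Hnrnpc 0.12, Hnrnpul1 0.27, Hnrnpul2 0.0989, Prpf18 0.17, Prpf19 0.25, Prpf31 0.13, Sf3b6 0.0617, Snrpa 0.10, Snrpc 0.0254. In LV P7 against LV P0 they were Hnrnpul1 0.12, Prpf18 0.0664, Prpf19 0.13, Sf3b6 0.0851, Snrpc 0.00283, Srsf5 0.30, and in LV P3 against LV P0 Prpf31 0.0270 and Prpf39 0.0704. These lists hold only genes named in each comparison. Of all 60 genes, those below 0 went from 59 to 52 with scaling in LV P3 against LV P0. In RV P3 against RV P0 they went from 51 to 45. From P3 to P7 they went from 56 to 45 in the RV and from 54 to 46 in the LV. Scaling moves the centre of all entries by its construction; for the other settings the cause was not tested. A pseudocount of 0.1 RPKM kept the direction and side of the threshold of all 121 gene values computed. With no filter on low values 9 genes were lower in RV P7 against RV P3. Summing the entries of a gene moved the log2 change in LV P7 against LV P0 to Srsf5 0.00290. With the replicate block, RV against LV gave 1 lower gene at P3 and 5 over the ages, from pairs of the same age and number. For age comparisons the block was the replicate number shared across ages, although such libraries were not taken as pairs. It turned the sign of Prpf31 in RV P7 against RV P0 (5.94e-05). That block moved no count of an age comparison by over 1.5 times, and it does not check a pairing across ages.

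Leaving out each library in turn gave 30 to 51 genes lower and 0 to 1 higher in RV P7 against RV P0, 13 to 25 lower in RV P3 against RV P0, 10 to 29 in LV P3 against LV P0, 0 to 24 in RV P7 against RV P3, 19 to 43 in LV P7 against LV P3 and 0 to 2 in RV against LV over the ages, the last without RV P0 replicate 1. The RV P7 library that is then alone is assumed to vary like the other groups. The ranges that follow cover only the genes named in each comparison. Log2 changes that crossed 0 ranged over -0.0913 to 0.0180 (Prpf19), -0.13 to 0.10 (Prpf31) and -0.35 to 0.84 (Srsf5) in RV P7 against RV P0, -0.21 to 0.12 (Srsf5) and -0.0839 to 0.11 (Srsf9) in LV P7 against LV P0, -0.00661 to 0.0486 (Prpf18), -0.14 to 0.0542 (Prpf31) and -0.16 to 0.13 (Prpf39) in LV P3 against LV P0, -0.0496 to 0.22 (Snrpa) in RV P3 against RV P0 and -0.38 to 0.81 (Srsf5) in RV P7 against RV P3. Between chambers they were -0.0192 to 0.43 (Sf3b5, P0), -0.0242 to 0.29 (Prpf8, P3) and -0.0297 to 0.16 (Snrpg, over the ages), and -0.44 to 0.13 for Snrpg in the difference of the changes. Alternatives chosen after seeing the data took the split by entry NM_008710 as a term or left out its 7 low libraries. As a term it gave 13 lower genes in RV P3 and 12 in LV P3 against P0; leaving the libraries out gave 5 and 1, and 1 in RV and 11 in LV P7 against P3, from fewer libraries. By P7 against P0 these gave 44 (40.5% of all entries lower) and 45 (34.3%) in the RV and 50 (45.1%) and 42 (28.6%) in the LV. Entries near 1 RPKM, such as Prpf31, rest on few reads.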
